A study of Mus musculus with 12 samples.

Results

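Expression of 9 genes typical of megakaryocytes and platelets was examined in RNASeq libraries of splenic T cells from mice. The genes were Pf4, Ppbp, Itga2b, Itgb3, Gp1ba, Gp1bb, Gp9, Gp6 and Vwf. They were taken by name, and each was found as a single row among the 49315 gene identifiers of the count table. The mice were 12-week-old males of a mixed S129/C57 background, either WT (miR-214+/+ littermates) or miR-214-/-, in which miR-214 is deleted in the whole animal and not in T cells alone. Mice of both genotypes carried osmotic minipumps for 14 days, which delivered buffer (sham) or Ang II (angiotensin II, a hormone that raises blood pressure) at 490 ng/kg per day. The 4 groups held 3 mice each, with 1 library per mouse. T cells were enriched from the spleen with magnetic beads that remove other cells, so cells that escape removal remain in the preparation.

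Megakaryocytes are large blood-forming cells of the bone marrow and, in mice, of the spleen. They shed platelets, small cell fragments that carry RNA made in the megakaryocyte but no nucleus, and platelets in blood or tissue can stick to leukocytes. Platelets hold on to an injured vessel through glycoprotein receptors on their surface, which bind von Willebrand factor, collagen and fibrinogen, and on activation they release chemokines and clotting proteins stored in alpha granules. Integrin subunits such as that of Itgb3 are shared widely between blood cells, and Vwf is also made by endothelial cells.

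The libraries held 21126874 to 29605988 counts, and the 12 within-group pairs each differed beyond sampling noise. The preparations were rich in T cell transcripts. The 10 T cell markers examined (the Cd3 chains, Trac, Lck and others) summed to between 2996 and 5266 CPM (counts scaled to each library's total, adjusted by TMM), against 24.5 to 78.5 CPM for 8 of the 9 genes without Itgb3. In bulk libraries of this kind, fewer cells of a type and less RNA per cell cannot be told apart.

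Pf4 (ENSMUSG00000029373, chromosome 5, 90772435 to 90773383, plus strand) and Ppbp (ENSMUSG00000029372, chromosome 5, 90768518 to 90770063, plus strand) are neighbours on GRCm38. On chromosome 11 lie Itga2b (ENSMUSG00000034664, 102453297 to 102470122, minus strand), Itgb3 (ENSMUSG00000020689, 104608000 to 104670476, plus strand) and Gp1ba (ENSMUSG00000050675, 70639122 to 70642036, plus strand). Gp9 (ENSMUSG00000030054, 87778072 to 87779768) and Vwf (ENSMUSG00000001930, 125546774 to 125686679) are on the plus strand of chromosome 6, Gp6 (ENSMUSG00000078810, 4363965 to 4397744) on the minus strand of chromosome 7 and Gp1bb (ENSMUSG00000050761, 18620317 to 18622403) on the minus strand of chromosome 16. All are annotated as protein coding. Reads were counted over exons, and 8 of the genes share no exon bases with another annotated gene. Gp1bb is the exception, since 91.1% of its 2087 exon bases also belong to Sept5 and 41.5% to Gm49601 on the same strand. Reads in shared bases cannot be assigned to a single gene, so the Gp1bb counts are uncertain.

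Megakaryocyte genes are known to be driven from their promoters by GATA, ETS and RUNX factors. RefSeq promoter sequence of GRCm38.p6 (250 bases before to 50 bases after the transcription start) was used for 7 of the 9 genes, all but Itgb3 and Vwf. GATA words were AGATAA and the variant AGATAG, as well as TGATAA and the variant TGATAG, on either strand. They were present in 4 of the 7 promoters and in 29.8% of 32851 RefSeq promoters. ETS words (AGGAAG or CGGAAG on either strand) were present in 5 of the 7 and in 46.5% of all, and the RUNX word TGTGGT in 1 of the 7 and in 16.8% of all. The windows below show where these letters fall before the RefSeq start sites of the receptor genes and of Pf4. For Itga2b the RefSeq start lies inside the gene as placed above, and so does its window. Each window has 30 bases, 5′ to 3′ in the direction of the gene, with the matched word in capitals, and the name gives the gene, the factor family and the position of the window.
Gp1ba, GATA, chr11:70639006-70639035 plus strand: tgtgcagagagcTGATAAgagcctttgccc
Gp1ba, GATA, chr11:70639059-70639088 plus strand: cacaggagctgaTTATCAggttgtcatttc
Gp1bb, GATA, chr16:18622408-18622437 minus strand: gcacctccccgcCTATCAtaagggaacaag
Gp6, GATA, chr7:4397871-4397900 minus strand: gctggcaagaagAGATAAgtggtggcttta
Gp9, ETS, chr6:87778042-87778071 plus strand: tttcaccatttcCTTCCTcctgtcaggcag
Itga2b, ETS, chr11:102469909-102469938 minus strand: gctttcctggagAGGAAGgggaagcagtga
Pf4, ETS, chr5:90772414-90772443 plus strand: ttctgcagagcaCTTCCTcatcctgtatcc
Gp1ba held 3 GATA matches, at 104, 51 and 23 bases before the start. The Gp6 match lay 144 bases, the Gp1bb match 22 bases and the Gp9 ETS match 16 bases before the start. Ppbp had no match to these letters in the window, and the 4th promoter with a GATA word was that of Pf4, where it lay 36 bases after the start. A match of this kind describes the letters alone and is neither a measured binding site nor a cause of the values that follow.

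The 9 genes spanned a wide range of levels. Per kilobase of exon, over all 12 libraries, Itgb3 (the beta chain of the platelet fibrinogen receptor, which pairs with other alpha chains elsewhere) stood highest at 15.3 ± 1.62 CPM per kb (SD, n = 12). It was followed by the alpha-granule chemokines Ppbp (8.46 ± 3.53 CPM per kb) and Pf4 (6.23 ± 2.89 CPM per kb) and by Itga2b, the megakaryocyte alpha chain of the fibrinogen receptor (4.10 ± 1.19 CPM per kb). Gp9 had 2.72 ± 1.12 CPM per kb and Gp1ba 1.85 ± 0.36 CPM per kb. Gp1bb (0.759 ± 0.274 CPM per kb), Vwf (0.534 ± 0.21 CPM per kb) and Gp6 (0.219 ± 0.0934 CPM per kb) were lowest. The Gp1bb value is divided by all of its exon bases, so its place in the order holds only if the bases shared with Sept5 were counted. Neighbours in this order overlapped within 1 SD from Ppbp down to Gp1ba and between Gp1bb and Vwf, whereas Itgb3 and Ppbp, Gp1ba and Gp1bb, and Vwf and Gp6 did not. Itgb3 and Gp1ba also varied least between libraries. Their highest library had 1.4 times and 1.77 times the level of their lowest, against 2.79 times (Itga2b) to 12.5 times (Gp6) for the other 7 genes.

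The first comparison asked how Ang II changed these genes in WT T cells. Of the 9 genes, Gp9 and Vwf rose after Ang II and 0 fell, by edgeR's quasi-likelihood test. A call required an adjusted p below 0.05 together with a log2 fold change above 1 or below -1, which was met by 7.3% of the 16012 genes tested. The median log2 fold change of the 9 genes was 1.07, against -0.016 over all genes tested. In 6 of the 9 genes (Pf4, Ppbp, Itga2b, Gp1bb, Gp9 and Vwf) every Ang II library was above every sham library, as for 19.1% of all genes tested. The same number of genes was higher at an unadjusted p under 0.05, which 19.8% of all genes reached.

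**Figure D1:**
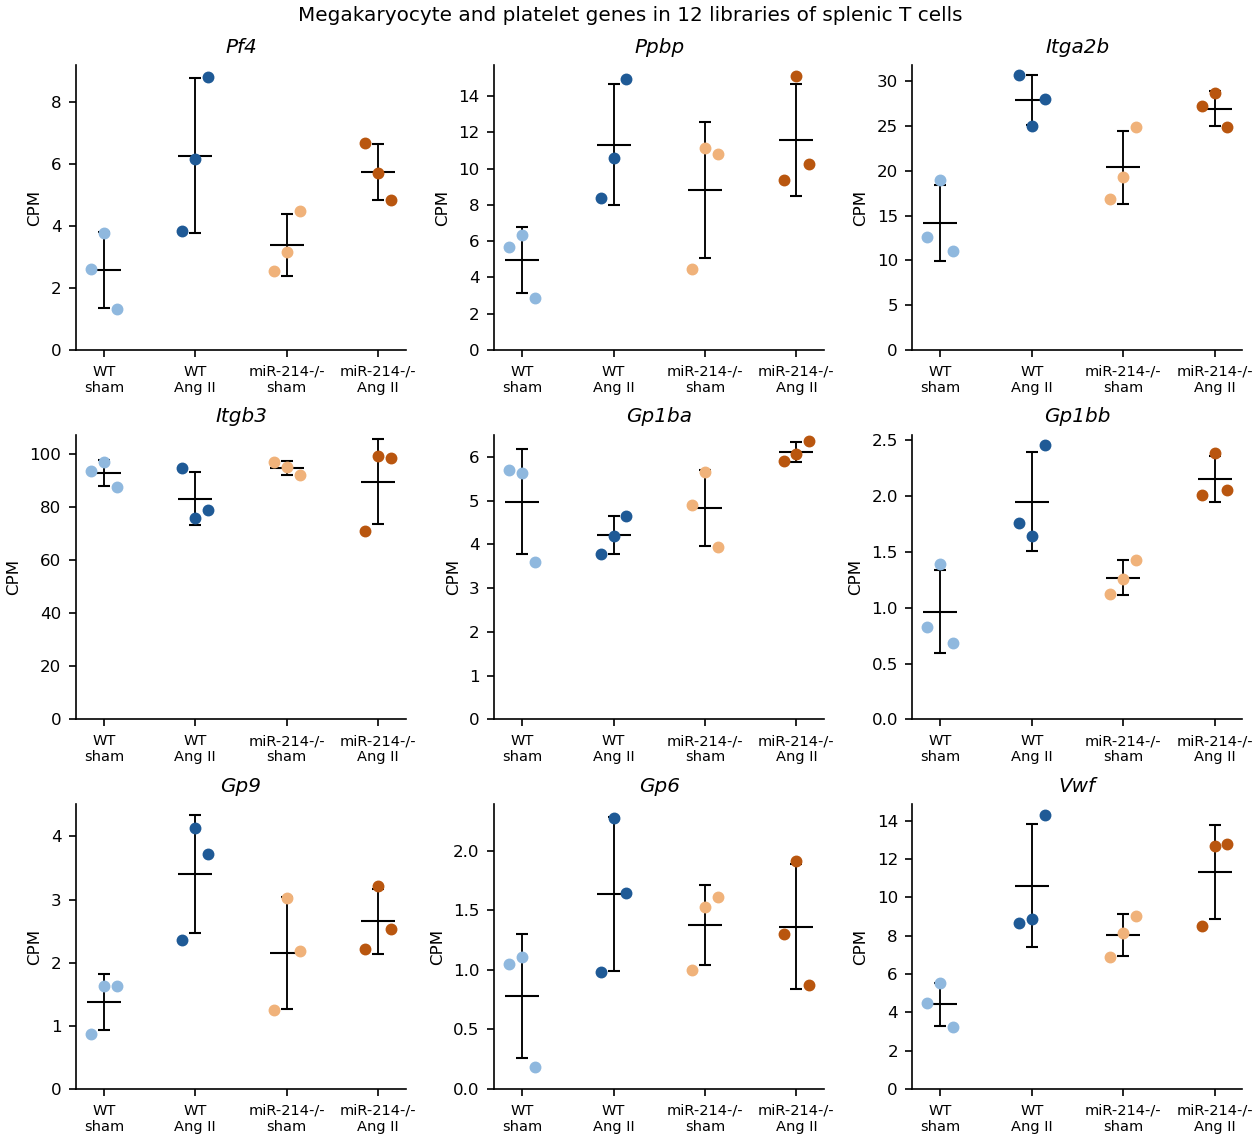
Normalised level (CPM, vertical axes from 0) of each of the 9 genes in the 12 libraries, by group, with the group mean as a horizontal line and the SD as a bar (n = 3 mice). In WT, the Ang II libraries of Pf4, Ppbp, Itga2b, Gp1bb, Gp9 and Vwf sit above the sham libraries, while the groups overlap for Itgb3, Gp1ba and Gp6.

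Among the alpha-granule chemokines, Pf4 (platelet factor 4) had 2.62, 3.77 and 1.32 CPM in the WT sham libraries and 3.83, 6.16 and 8.80 CPM in the WT Ang II libraries. The lowest Ang II library was thus just above the highest sham library, and the fold change of 2.46 (log2 1.30 ± 0.44 SE) did not pass the test (edgeR, adjusted p = 0.083). Ppbp, which encodes the precursor of another platelet chemokine that draws neutrophils, had 5.67, 6.34 and 2.87 CPM in WT sham and 8.39, 10.6 and 14.9 CPM in WT Ang II. The groups did not overlap, and the log2 fold change of 1.21 ± 0.35 (SE) missed the threshold narrowly (edgeR, adjusted p = 0.0523).

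The chains of the fibrinogen receptor differed from each other. Itga2b had 12.64, 19.03 and 11.01 CPM in WT sham and 30.72, 25.04 and 28.02 CPM in WT Ang II. The means were 14.2 ± 4.24 and 27.9 ± 2.84 CPM (SD, n = 3), with counts between 242 and 875 per library. Itga2b reached an adjusted p of 0.0243 in edgeR, but its log2 fold change of 0.99 ± 0.22 (SE) lay just under the threshold of 1, so it was not called. Itgb3 had 92.8 ± 4.86 CPM in WT sham and 83.2 ± 10.1 CPM in WT Ang II (SD, n = 3), with overlapping groups. Its log2 fold change was -0.14, with a 95% interval from -0.37 to 0.10, which lay below the interval of Itga2b (0.48 to 1.51), a difference between genes that was not tested itself.

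The receptor for von Willebrand factor is built from the products of Gp1ba, Gp1bb, Gp9 and Gp5. Gp9, a small subunit needed to bring the complex to the surface, had 0.872, 1.63 and 1.64 CPM in WT sham and 2.35, 4.13 and 3.72 CPM in WT Ang II. All Ang II libraries were above all sham libraries, and the rise was 2.496-fold (log2 1.32 ± 0.33 SE, edgeR adjusted p = 0.0356). Gp1bb, the beta chain, had 0.828, 1.39 and 0.683 CPM in WT sham and 1.76, 1.64 and 2.46 CPM in WT Ang II, from 15 to 58 counts per library. These groups did not overlap either, but the log2 fold change of 1.02 ± 0.34 (SE) was not called (edgeR, adjusted p = 0.0783). Sept5, which shares most of the Gp1bb exon bases, was not called in WT (log2 fold change 1.58, adjusted p = 0.075) and had 1.35 ± 0.50 CPM in sham and 3.96 ± 2.54 CPM in Ang II (SD, n = 3). Its part in the Gp1bb values was not tested.

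Gp1ba, the chain that binds von Willebrand factor, was not called. It had 5.709, 5.631 and 3.595 CPM in WT sham and 3.791, 4.204 and 4.655 CPM in WT Ang II, with the Ang II libraries inside the range of sham. The log2 fold change was -0.22 (95% interval -0.77 to 0.33, edgeR adjusted p = 0.539). That interval lay below the interval of Gp9 (0.54 to 2.10) and overlapped that of Gp1bb (0.22 to 1.83), again without a test between the genes.

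Gp6, the collagen receptor of platelets, was the least abundant gene, with 24, 28 and 4 counts in WT sham and 28, 64 and 39 counts in WT Ang II. The library labelled WT sham replicate 3 was far below the other sham libraries, and the groups overlapped. The log2 fold change of 1.07 had a 95% interval from -0.33 to 2.47, and a change was not detectable at this depth (edgeR, adjusted p = 0.241).

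Vwf, the adhesive protein that the Gp1ba complex binds, had 4.49, 5.51 and 3.23 CPM in WT sham and 8.64, 8.87 and 14.3 CPM in WT Ang II. The groups did not overlap, and the rise was 2.438-fold (log2 1.29 ± 0.29 SE, edgeR adjusted p = 0.0265). Endothelial cells also make Vwf. Of 8 endothelial markers tested (10 listed), Tie1, Egfl7 and Eng rose in WT (7.3% of all genes were called), while Cdh5 (log2 fold change 1.21, adjusted p = 0.178), Kdr (0.07, adjusted p = 0.93) and 3 others did not pass. The median over the 8 was 1.18 on the log2 scale. The endothelial list summed to between 23.8 and 34.1 CPM in WT sham and between 55.1 and 60.9 CPM in WT Ang II, and none of its genes was at 0 in all libraries of a group. Eng was its most abundant gene and weighs most in these sums, with 15.8 ± 3.39 CPM in WT sham and 31.9 ± 10.4 CPM in WT Ang II (SD, n = 3). Means of Cdh5 (0.725 and 1.649 CPM) and Kdr (1.1 CPM in both) were low. The part of these cells in the Vwf values was not tested.

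Some lists of markers of other blood cells held more called genes in WT than the 7.3% of all genes tested, and others did not. All cell-type lists, the endothelial list included, were chosen with earlier results of these data known, so these shares are descriptions. All 11 neutrophil genes were called higher, with sums of 211 to 268 CPM in sham and 1195 to 3578 CPM in Ang II. Red-cell precursor genes were called higher in 7 of 13, with sums of 445 to 557 CPM in sham and 1589 to 5797 CPM in Ang II, and blood stem and progenitor genes in 5 of 6, with sums of 36.9 to 70.1 CPM in sham and 147 to 153 CPM in Ang II. Both lists were thus above their sham ranges in every Ang II library. Basophil and mast cell genes were called higher in 5 of 6, with sums of 42.9 to 79.0 CPM in sham and 174 to 410 CPM in Ang II. Against the same share of 7.3%, 1 of 7 genes of macrophages and monocytes was called (Lyz2), with overlapping sums of 328 to 589 CPM and 533 to 2290 CPM. B cell genes were called in 0 of 5, with a median log2 fold change of -0.32 and sums of 54.4 to 272 CPM in sham and 92.9 to 139 CPM in Ang II. T cell markers were called in 0 of 10, and all 10 had negative log2 fold changes (median -0.52), 8 at an adjusted p under 0.05, and their sum was 4464 to 5266 CPM in sham and 2996 to 3672 CPM in Ang II. In no list was a gene at 0 in all libraries of a group. The part of any of these cells in the 9 genes was not tested.

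The calls in WT depended on the processing. With DESeq2's Wald test 5 of the 9 genes were called (8.09% of all genes), the additional ones being Pf4 (adjusted p = 0.0184), Ppbp (0.00315) and Itga2b (9.4e-05). Leaving out a library moved the count between 0 and 4. It was 0 without WT sham replicate 1, without WT sham replicate 3 or without WT Ang II replicate 3, where 3.39% to 3.61% of all genes were called, and 4 without WT Ang II replicate 1 (8.14% of all genes). The direction of every gene in WT was kept under all alternatives run. Vwf had log2 fold changes between 1 and 1.48 over them, and Gp9 between 1.08 and 1.53. With the replicate number as a block 2 genes were called (6.03% of all genes), but Vwf was no longer among them (adjusted p = 0.0686), and Itga2b was (log2 fold change 1.03, adjusted p = 0.0489).

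**Figure D2:**
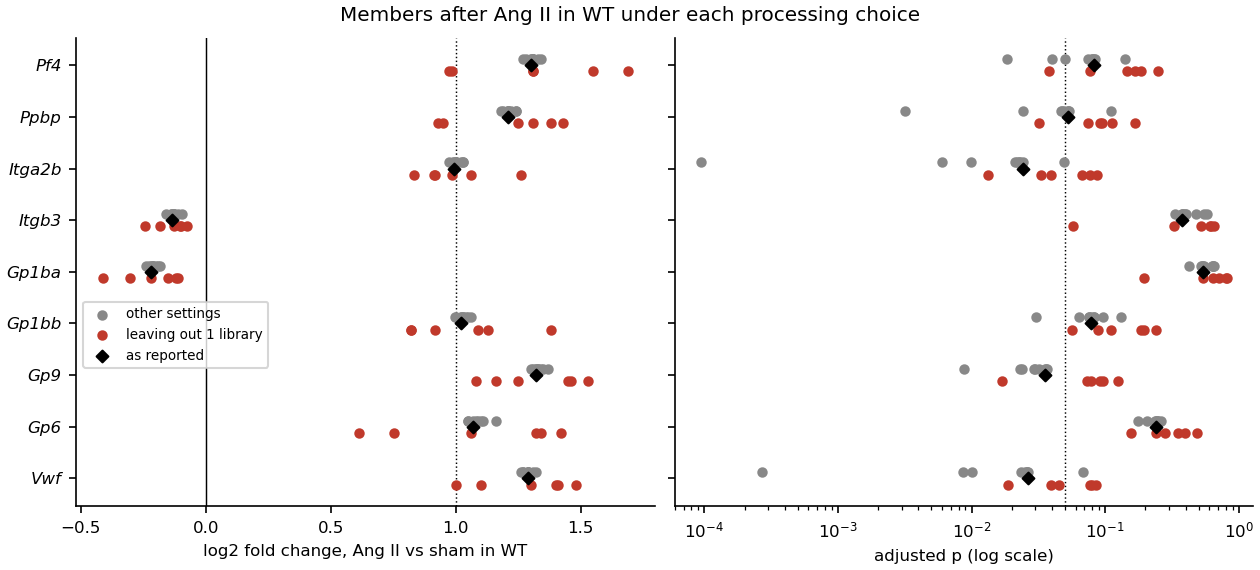
Log2 fold change (left) and adjusted p on a log scale (right) of the 9 genes for Ang II against sham in WT, as reported (diamonds), under other settings (grey) and leaving out 1 library (red), with dotted lines at a log2 fold change of 1 and an adjusted p of 0.05. All points of a gene are on the same side of 0, while the adjusted p of Pf4, Ppbp, Itga2b, Gp1bb, Gp9 and Vwf falls on both sides of the threshold.

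The second comparison was Ang II against sham in miR-214-/- T cells. None of the 9 genes was called by edgeR, as for 0.0% of the 15937 genes tested there. At an unadjusted p under 0.05 Pf4, Gp1bb, Itga2b and Vwf were higher, 4 of the 9 genes against 5.82% of all genes tested. DESeq2 likewise called 0 of the 9, against 0.232% of all genes. The median log2 fold change of the 9 genes was 0.40, against 0.03 over all genes. Every Ang II library was above every sham library for 3 genes, Pf4, Gp1bb and Gp1ba, as for 8.83% of all genes tested.

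Pf4 had 2.53, 3.16 and 4.47 CPM in miR-214-/- sham and 6.67, 5.71 and 4.84 CPM in miR-214-/- Ang II, with no overlap between the groups. Its log2 fold change was 0.77 (95% interval 0.15 to 1.38, adjusted p = 0.344). Gp1bb had 1.12, 1.25 and 1.43 CPM in sham and 2.01, 2.39 and 2.05 CPM in Ang II (log2 fold change 0.76, 95% interval 0.25 to 1.27, adjusted p = 0.294). Sept5 had a log2 fold change of 1.13 here (adjusted p = 0.509). Gp1ba had 4.90, 5.66 and 3.93 CPM in sham and 5.92, 6.07 and 6.37 CPM in Ang II, and the log2 fold change of 0.35 did not pass the test (adjusted p = 0.49).

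For Vwf and Gp9, which rose in WT, and for Itga2b, which was not called there, the miR-214-/- groups overlapped. Vwf had 6.89, 8.12 and 9.05 CPM in sham and 8.48, 12.7 and 12.8 CPM in Ang II, with a log2 fold change of 0.50 (95% interval 0.01 to 0.98, adjusted p = 0.403). Gp9 had 1.25, 3.02 and 2.18 CPM in sham and 2.21, 3.22 and 2.53 CPM in Ang II, with a log2 fold change of 0.31 (95% interval -0.49 to 1.12). Both upper bounds were below the WT estimates (1.29 for Vwf and 1.32 for Gp9) and inside the WT intervals (0.60 to 1.97 and 0.54 to 2.10). Itga2b had 16.9, 19.4 and 24.9 CPM in sham and 27.3, 28.7 and 24.9 CPM in Ang II, where the highest sham library and the lowest Ang II library were nearly equal. Its log2 fold change was 0.41 (95% interval 0.03 to 0.79, adjusted p = 0.389).

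Ppbp, Itgb3 and Gp6 had overlapping groups too. Ppbp had 4.48, 11.1 and 10.8 CPM in miR-214-/- sham and 9.35, 15.1 and 10.3 CPM in miR-214-/- Ang II (log2 fold change 0.40, 95% interval -0.46 to 1.26). The first sham library was far below the other two. Itgb3 had 94.7 ± 2.57 CPM in sham and 89.6 ± 15.98 CPM in Ang II (SD, n = 3), and Gp6 had 24, 33 and 45 counts in sham and 33, 53 and 20 counts in Ang II. The log2 fold changes were -0.08 for Itgb3 and -0.00 for Gp6, each with an interval that spans 0.

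Neutrophil and red-cell precursor sums in miR-214-/- overlapped between sham (253 to 1021 CPM and 338 to 766 CPM) and Ang II (656 to 3251 CPM and 617 to 4678 CPM). No gene of any cell-type list was called there by edgeR. At an unadjusted p under 0.05 there were 7 of 66 tested, as were 12.2% of all genes. All 7 were higher, as were 5.82% of all genes. The endothelial sum was 27.4 to 38.6 CPM in sham and 25.2 to 47.5 CPM in Ang II.

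The genotypes were then compared within each treatment. In sham mice 0 of the 9 genes were called by edgeR (0.0189% of 15913 genes tested) or by DESeq2 (0.22%). Vwf was the only one of the 9 at an unadjusted p under 0.05 (6.67% of all genes) and with every miR-214-/- library (6.89 to 9.05 CPM) above every WT library (3.23 to 5.51 CPM), as for 5.4% of all genes tested, with a log2 fold change of 0.86 ± 0.23 (SE) and an adjusted p of 0.701. Ppbp (log2 fold change 0.82), Gp6 (0.80), Gp9 (0.63) and Itga2b (0.52) also had higher means in miR-214-/- sham, with overlapping libraries and 95% intervals that span 0. Itgb3 and Gp1ba had log2 fold changes of 0.02 and -0.05. The median over the 9 genes was 0.52, against -0.01 over all genes. The neutrophil sum was 211 to 268 CPM in WT sham and 253 to 1021 CPM in miR-214-/- sham.

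In Ang II mice 0 of the 9 genes were called as well, by edgeR (0.0% of 16215 genes tested) or by DESeq2 (0.0678%). Gp1ba was the only one at an unadjusted p under 0.05 (8.56% of all genes) and without overlap (8.02% of all genes tested had every miR-214-/- library higher), with 3.79 to 4.66 CPM in WT and 5.92 to 6.37 CPM in miR-214-/-. Its log2 fold change was 0.54 ± 0.17 (SE), with an adjusted p of 0.569. The other 8 genes had log2 fold changes between -0.35 (Gp9) and 0.14 (Gp1bb), each with an interval that spans 0. For Itga2b the interval was narrow, from -0.34 to 0.24.

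Whether the response to Ang II differed between genotypes was tested directly by the interaction term over all 12 libraries. By edgeR it was called for 0 of the 9 genes, against 0.00596% of 16770 genes tested. By DESeq2 it was also called for 0 of the 9, against 2.67% of all genes. At an unadjusted p under 0.05 (edgeR), which 14.8% of all genes reached, there were 0 as well. The interaction was negative (a smaller log2 fold change in miR-214-/- than in WT) for 7 genes and positive for 2. The largest negative values were -1.07 for Gp6, -0.99 for Gp9, -0.79 for Ppbp and -0.77 for Vwf, and the positive ones were 0.58 for Gp1ba and 0.08 for Itgb3. All 95% intervals span 0. The nearest to excluding it were Vwf (-1.57 to 0.04), Itga2b (-1.19 to 0.05) and Gp1ba (-0.05 to 1.22), with adjusted p values of 0.355, 0.369 and 0.37. Gp9 and Vwf were thus called in WT and not in miR-214-/-, while the test of the difference between genotypes passed for neither.

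**Figure D3:**
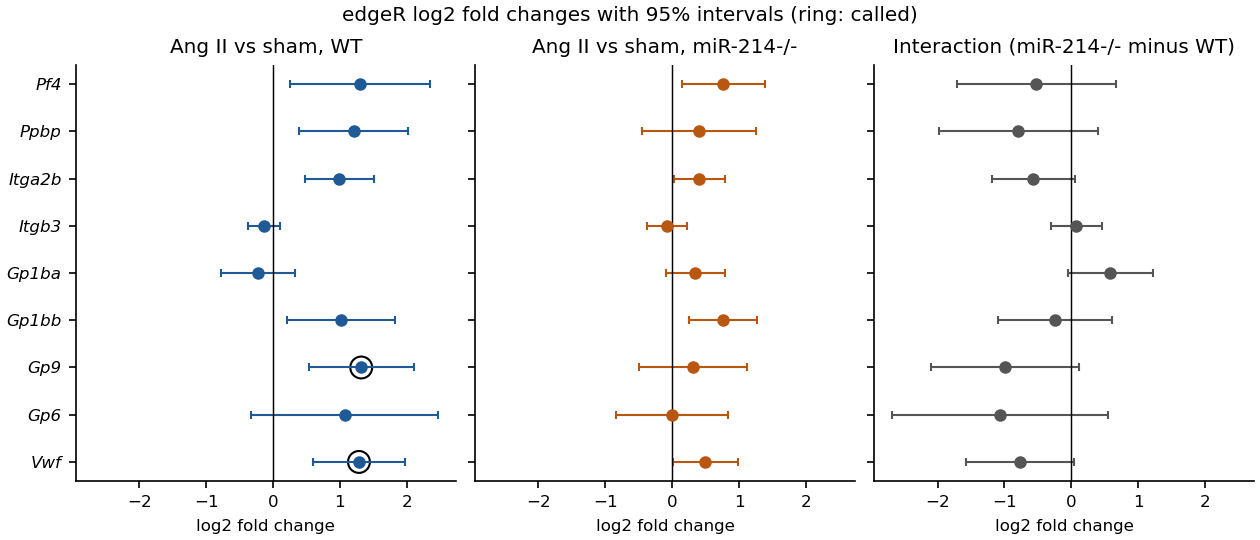
Log2 fold changes of the 9 genes with 95% intervals for Ang II against sham in WT (left) and in miR-214-/- (middle) and for the interaction, miR-214-/- minus WT (right), with a ring around called genes. In WT the estimates lie between -0.22 and 1.32 and only Gp9 and Vwf are ringed, and in the right panel every interval crosses 0.

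Across the 12 libraries 7 of the genes varied together. Pearson's r of log2 CPM over the 21 pairs of Pf4, Ppbp, Itga2b, Gp1bb, Gp9, Gp6 and Vwf was between 0.512 and 0.94, with a median of 0.828. This set leaves out Itgb3 and Gp1ba, the genes with the lowest r in the same data, so its high median follows in part from the grouping. The difference between groups enters these values. After each group's mean was subtracted, the median was 0.608 (0.166 to 0.839), and Gp9 had the lowest values. Values were lower for Itgb3, with r between -0.45 and 0.195 to the other 8 genes, and for Gp1ba, with r between -0.06 and 0.327. After the group means were subtracted Itgb3 had a median of 0.133 (-0.271 to 0.377), while Gp1ba had a median of 0.476 (-0.01 to 0.654), nearer to that of the 7 genes. All pairs share the same libraries and their depth, and these values are descriptions, with no r of other gene pairs beside them.

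**Figure D4:**
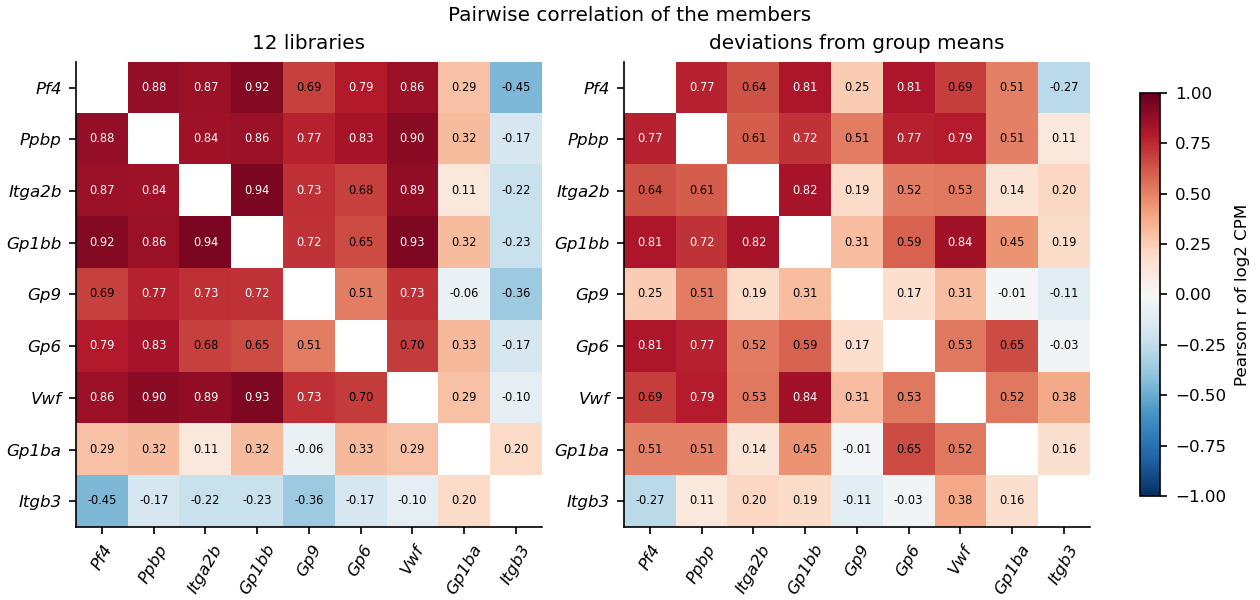
Pearson's r of log2 CPM for each pair of the 9 genes over 12 libraries (left) and after subtraction of group means (right), on a colour scale from -1 to 1. The block of 7 genes is red on the left, with a median r of 0.828, and paler on the right (0.608), while the columns of Itgb3 and Gp1ba are pale or blue on the left, and that of Gp1ba is redder on the right (median 0.476).

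The genes whose levels tracked each of the 9 most closely were sought among 13753 others by Pearson's r of log2 CPM over the 12 libraries. For Ppbp, Vwf and Gp1bb they included other platelet genes. Ppbp was nearest to Tubb1, the tubulin of the platelet marginal band (r = 0.957), followed by Treml1, a receptor of the alpha-granule membrane (0.913), and Alox12, the platelet lipoxygenase (0.912). Vwf was nearest to Alox12 (0.958), Mmrn1, an alpha-granule protein that binds factor V (0.94), and Clu (0.932), and Gp1bb to Mmrn1 (0.956), Alox12 (0.941) and Gnpda1 (0.927). Itga2b was nearest to Mylk (0.96), Ifitm2 (0.95) and Ccr1 (0.949), and Pf4 to Fnbp1l (0.928), Spata7 (0.926) and Evpl (0.912).

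For the other 6, Itga2b and Pf4 included, none of the nearest genes stood in the lists of platelet genes. Those not yet named were Csnk1e (0.952), Celf2 (0.943) and Castor2 (0.942) for Itgb3 and Rpap2 (0.921), Ehhadh (0.908) and Zkscan8 (0.906) for Gp1ba. For Gp9 they were Mycbp (0.952), Impdh2-ps (0.932) and Mmgt1 (0.929), and for Gp6 Tsc22d1 (0.915), Odr4 (0.913) and Dnah2 (0.893). By ranks (Spearman's rho) the values for Gp6, which had 4 counts in WT sham replicate 3, were 0.86, 0.776 and 0.594. All of these genes were picked for a high r, so the values are descriptions. Celf2 is an RNA-binding protein abundant in T cells, with a mean log2 CPM of 8.25.

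The 9 genes are a small share of the platelet programme, so 67 other genes of megakaryocytes and platelets were examined in 5 lists. The 9 genes and these lists were chosen with earlier results of these data known. Their shares beside those of all genes are therefore descriptions. In WT 66 were tested, and 20 were called higher and 0 lower after Ang II (30.3%, against 7.3% of all genes). The median log2 fold change of the 66 was 0.79. The fold threshold leaves out genes that passed the adjusted p alone. Of these Mkl1, Itga6, Pecam1, Tbxa2r, Rasgrp2 and Actn1 were lower (edgeR, log2 fold changes -0.66 to -0.42). Mafg, Etv6 and Gnaq were higher (0.43 to 0.81). In miR-214-/- 0 of 65 tested were called by edgeR (0.0% of all genes) or DESeq2 (0.232%), with a median of 0.24. At an unadjusted p under 0.05 (edgeR) there were 13 genes, a level that 12.2% of all genes reached. Of the 13, 12 were higher, as were 5.82% of all genes. The interaction had a median of -0.37 and was called for 0 of 66 genes by edgeR, with 18 at an unadjusted p under 0.05 (14.8% of all genes), and for 5 by DESeq2, which called 2.67% of all genes. The WT count was 6 without WT sham replicate 1, 7 without WT sham replicate 3 and 10 without WT Ang II replicate 3, where 3.39%, 3.6% and 3.61% of all genes were called. The lists hold genes that other cells use as well, and Gata2 and Meis1 also stand in the list of stem and progenitor cells.

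Transcription factors of the lineage had the highest median (1.13), and in WT, where 7.3% of all genes were called, 7 of 13 were called higher. They were Gfi1b (log2 fold change 2.94), Tal1 (2.77), Gata1 (2.27), Nfe2 (2.12), Meis1 (1.35), Gata2 (1.21) and Cbfa2t3 (1.13). Gfi1b, Tal1 and Gata1 also serve red-cell precursors. Gata1 had 9.90 ± 2.76 CPM in WT sham and 47.2 ± 21.5 CPM in WT Ang II, against 19.7 ± 7.30 CPM and 23.6 ± 19.6 CPM in miR-214-/- (SD, n = 3). Nfe2, needed for platelet shedding, had 11.5 ± 3.44 and 49.3 ± 9.90 CPM in WT and 19.5 ± 4.15 and 30.1 ± 7.43 CPM in miR-214-/-, so its miR-214-/- means were nearer to each other. Their interactions were -1.99 for Gata1 (adjusted p = 0.283) and -1.47 for Nfe2 (adjusted p = 0.213). The most abundant factors of the list, Mkl1, Runx1 and Fli1, had log2 fold changes of -0.43, -0.10 and -0.34 in WT.

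Of the surface receptors 4 of 12 were called higher in WT, against 7.3% of all genes. Among the 4 were Cd36 (2.40), a scavenger receptor that macrophages share, Treml1 (2.03) and Gp5 (1.11), the remaining subunit of the von Willebrand factor receptor. Treml1 had 0.596 ± 0.345 CPM in WT sham and 2.41 ± 0.115 CPM in WT Ang II (SD, n = 3). In miR-214-/- the means of Treml1 were intermediate, at 1.40 CPM in sham and 2.09 CPM in Ang II. The most abundant genes of this list, Itgb1 (0.21), Itga6 (-0.50) and Pecam1 (-0.42), are used by T cells too and were not called.

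In WT, where 7.3% of all genes were called, granule cargo gave 6 of 16 called higher. They were F13a1 (2.92), Timp3 (2.56), Thbs1 (2.24), factor V gene F5 (1.99), Mmrn1 (1.54) and Selp (1.19), which encodes P-selectin. Macrophages make F13a1 as well, and its WT Ang II counts spread from 2721 to 10443. Timp3 had at most 34 counts in a library. Among agonist receptors and signalling genes 2 of 18 tested were called higher, the ADP receptor P2ry1 (1.92) and Plcg2 (1.10). Of the cytoskeleton 1 of 7 was, Myl9 (1.45), and the median of that list was -0.14. Counts this small were not tested against the 7.3% of all genes. The most abundant genes of these lists were Nbeal2 (-0.29), Srgn (-0.05), Tgfb1 (0.09), Tln1 (-0.06), Rasgrp2 (-0.49), Gna13 (-0.11), Myh9 (-0.41), Flna (-0.16) and Actn1 (-0.66), none of which was called.

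**Figure D5:**
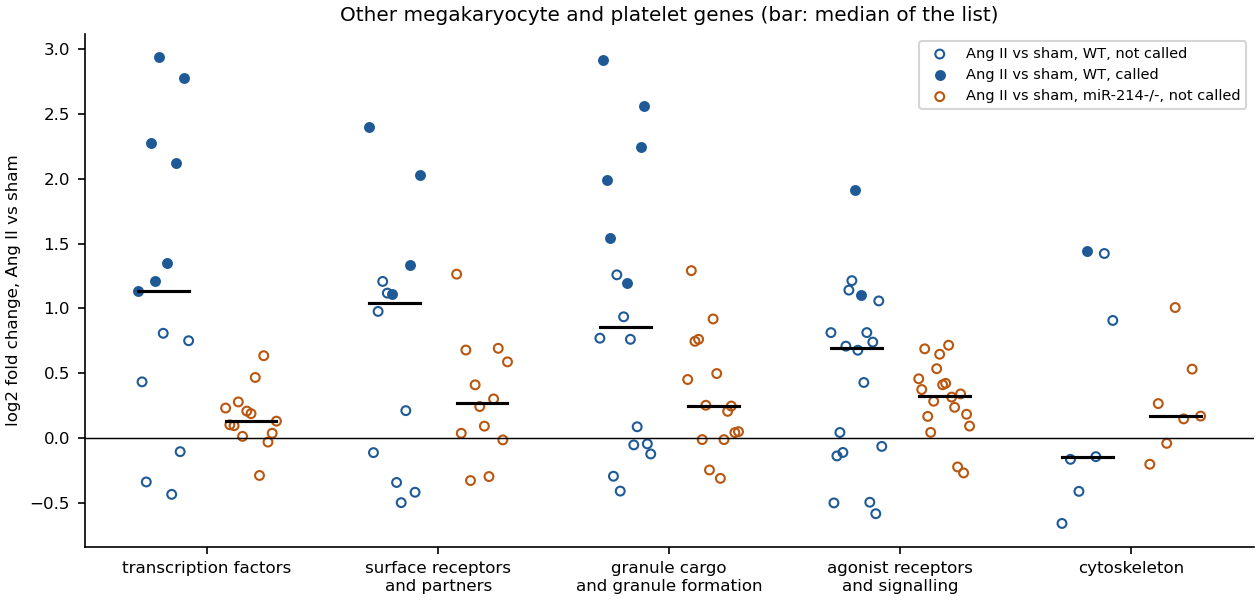
Log2 fold change of Ang II against sham for each gene of the 5 lists of other megakaryocyte and platelet genes in WT (blue, filled where called) and miR-214-/- (orange, none called), with the list median as a bar. The WT medians are 1.13, 1.04, 0.85, 0.69 and -0.14 from left to right, and the called genes reach 2.94.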

How the data were processed

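Splenic T cells of WT and miR-214-/- mice were profiled by RNASeq after sham or Ang II. Poly(A) reads were trimmed with Trimmomatic, mapped to GRCm38 with STAR and counted on exons with featureCounts of Subread 1.5.2, and the raw read counts per gene were deposited by the authors without normalization. The annotation release and strand setting of the counting are not given in the sources used here. Reads that map to several places were not counted.

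Identifiers were named with GENCODE M21 (49056 of 49315 matched). In R 4.3.3, edgeR 4.0.16 was used with filterByExpr, TMM scaling and the quasi-likelihood test over all genes, with Benjamini-Hochberg adjustment. The 9 genes passed the filter in all 5 comparisons. Calls required an adjusted p below 0.05 with a log2 fold change above 1 or below -1, and for the interaction the adjusted p alone. DESeq2 1.42.0 was an alternative. CPM used TMM factors of all 12 libraries, and log2 CPM a prior count of 2. Intervals are at 95% and p-values measure the spread between mice. With 3 mice against 3 a permutation test of a single gene cannot reach 0.05, so calls rest on the spread shared across genes. Scripts were tested on simulated data. Python 3.11.15 with matplotlib 3.10.9 drew the figures.

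The 9 genes and all lists (other platelet genes, and markers of T cells, endothelial cells, red-cell precursors, basophils and mast cells, neutrophils, macrophages and monocytes, B cells, and stem and progenitor cells) were chosen with earlier results of these data known. Genes named from the lists of other platelet genes were those called, those at an adjusted p under 0.05 in WT, and the 3 most abundant of each. The values of 1 called gene are not reported here. Ahsp of the red-cell list was not used here. Alternatives were other scalings and filters, an adjusted-deviance fit, the replicate block, 1 fit over all groups, the adjusted p alone, and leaving out each library. Their counts over the other platelet genes were added after the data were seen.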

Additional observations from a re-analysis of the deposited data

How the results depend on the processing

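Of the 9 genes, the number called for Ang II in WT (2 as reported) was 5 with DESeq2 (8.09% of all genes called), 4 with RLE scaling (7.38%), 5 with no filter (4.88%) and 4 with at least 10 counts in every library (7.05%). It was 3 with library size scaling (7.44%), the adjusted-deviance fit (7.32%) or 1 fit over all groups (7.11%), and 3 with the adjusted p alone, which calls 18.8% of all genes. It ranged from 0 to 4 when leaving out 1 library (3.39% to 8.14%). In the other 4 comparisons it was 0 under every alternative run. The share of all genes called there was at most 0.232% for Ang II in miR-214-/-, 0.22% between the sham groups and 0.0678% between the Ang II groups. For the interaction it was at most 0.0174%, except 2.67% with DESeq2 and 5.35% without miR-214-/- Ang II replicate 1. Of 708 values of single genes under alternatives, 659 kept their direction and side of the threshold, 19 gained and 9 lost a call, and 21 changed sign. Among the last, Gp6 for Ang II in miR-214-/- was 0.00679 with the adjusted-deviance fit, and Ppbp between the Ang II groups was -0.0229 with library size scaling.

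The other 19 changes of sign came from leaving out 1 library, in log2 fold changes near 0. On leaving out 1 library the ranges were -0.338 to 0.223 for Gp6 and -0.16 to 0.0607 for Itgb3 for Ang II in miR-214-/-, -0.239 to 0.0863 for Gp1ba and -0.018 to 0.0612 for Itgb3 between the sham groups, and -0.006 to 0.219 for Itgb3 in the interaction. Between the Ang II groups they were -0.367 to 0.217 for Pf4, -0.204 to 0.299 for Ppbp, -0.132 to 0.0373 for Itga2b, -0.577 to 0.0523 for Gp6 and -0.0324 to 0.38 for Vwf.

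Among the 67 other platelet genes, the WT count of 20 ranged from 6 to 21 on leaving out 1 library (3.39% to 8.14% of all genes). It was between 15 and 29 under the other alternatives (4.88% to 18.8%). The 29 came with the adjusted p alone (18.8%) and include Mkl1, Itga6, Pecam1, Tbxa2r, Rasgrp2 and Actn1, which were lower. For the interaction DESeq2 called 5 of the other platelet genes (447 of all genes). Leaving out 1 library gave 0 to 7, the 7 without miR-214-/- Ang II replicate 1 (919 of all genes). Between the sham groups the count was 0 to 1, where 0.0% to 0.22% of all genes were called. The causes were not tested.

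The replicate block kept 2 of the 9 genes called in WT (Vwf lost, adjusted p = 0.0686, Itga2b gained, adjusted p = 0.0489) and 15 of the other platelet genes. Deviations of same-numbered libraries correlated at 0.198, 0.111 and -0.137 in WT and at -0.56, -0.232 and -0.368 in miR-214-/-. Same-numbered libraries thus did not deviate together throughout. With 3 libraries per group these values cannot settle whether a replicate number marks a pairing or a shared batch. The lowest count of a gene in a library was 4, for Gp6.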
